A study of Mus musculus with 15 samples.

Results

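The cAMP-responsive genes and NR4A receptors described here are 10 mouse genes, Nr4a1, Nr4a2, Nr4a3, Creb1, Crem, Sik1, Pde4b, Pde4d, Prkar2b and Adcyap1r1. They were chosen by name as genes of the response to cAMP, with earlier results of these data known. All 10 were present among the 26301 genes counted. RNA-seq counts came from 3T3-L1 cells, a preadipocyte line of the mouse that can be made to differentiate into fat cells, collected on day 2 after induction. The study asked how the histone H3K9 demethylase JMJD1A, encoded by Kdm3a, acts during this process. The 15 libraries fell into 5 groups of 3 replicates. Every group had been induced with IBMX at 115 ug/mL, together with dexamethasone at 1 uM and insulin at 1.67 uM. The knockdown set held a control line with the empty vector (sh-Empty) and JMJD1A-KD cells (sh-Jmjd1a), which express a short hairpin RNA against Kdm3a. The cells of the rescue set all carried the same hairpin and in addition expressed LacZ, JMJD1A(WT) or JMJD1A(Mut), the last with the substitution H1122A at its iron-coordination site. The hairpin and the rescue genes were delivered by retroviral vectors followed by drug selection, so each group is 1 selected line. No library without IBMX and none from before induction was analysed here, so the values are levels in cells induced with IBMX and not a response to it. The level of cAMP at collection is not given in these data.

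Many hormones act through receptors that activate adenylyl cyclase, which makes cAMP. The nucleotide frees the catalytic subunits of protein kinase A from regulatory subunits such as RIIβ, and the kinase phosphorylates CREB, which binds the cAMP response element (CRE) in the promoters of its targets. Phosphodiesterases such as those of the PDE4 family degrade cAMP, and IBMX, a part of the usual adipogenic cocktail, inhibits most phosphodiesterases. The NR4A receptors are orphan nuclear receptors whose genes respond early to cAMP, and salt-inducible kinases restrain the CRTC coactivators of CREB. In adipocytes this pathway is best known for driving lipolysis.

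Total counts ranged from 11437058 to 25523148 per library with a median of 12916162, the highest being JMJD1A(WT) replicate 3. Kdm3a (chr6:71538968-71582899, minus strand, mm9) was at 171, 174 and 185 CPM in sh-Empty cells and at 129, 128 and 138 CPM in sh-Jmjd1a cells, where CPM are counts scaled to library size, with TMM factors set within the knockdown or the rescue set. Its log2 fold change (log2FC) was -0.42 (SE 0.0484, quasi-likelihood test of edgeR, Benjamini-Hochberg adjusted p = 2.91e-08). With the rescue constructs, Kdm3a was at 116 to 122 CPM with LacZ, 1639 to 1768 CPM with JMJD1A(WT) and 2103 to 2288 CPM with JMJD1A(Mut). The counts do not separate the endogenous transcript from the introduced one, and the mutant libraries held more Kdm3a than the wild-type libraries (log2FC 0.38, adjusted p = 3.94e-12). All 12 adipocyte markers of a fixed list, among them Pparg, Fabp4 and Adipoq, and all 12 preadipocyte and fibroblast markers were detected in every group.

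Promoter windows from RefSeq on GRCm38.p6, which run from 250 bases before to 50 bases after an annotated start, were given for 8 of the 10 genes, in 12 windows. Crem and Sik1 had none. Both strands were searched for the full CRE (TGACGTCA), for its 5-base core (TGACG, or CGTCA on the other strand; the full CRE holds both) and for the element bound by NR4A monomers (AAAGGTCA, or TGACCTTT on the other strand). The 3 NR4A windows are shown because each held the CRE core 4 times, and windows of Prkar2b (the first of its 2 starts), Adcyap1r1 and Pde4b (the 1 of its 4 that held the core) because each of these genes fell in a comparison in which Nr4a1 rose. Capitals mark the CRE core on either strand. The windows lie at chr15:101266596-101266895 (plus strand) for Nr4a1, chr2:57123954-57124253 (minus) for Nr4a2, chr4:48045055-48045354 (plus) for Nr4a3, chr12:32061228-32061527 (minus) for Prkar2b, chr6:55451728-55452027 (plus) for Adcyap1r1 and chr4:102421305-102421604 (plus) for Pde4b, and each is written 5′ to 3′ along the strand of its gene.
Nr4a1: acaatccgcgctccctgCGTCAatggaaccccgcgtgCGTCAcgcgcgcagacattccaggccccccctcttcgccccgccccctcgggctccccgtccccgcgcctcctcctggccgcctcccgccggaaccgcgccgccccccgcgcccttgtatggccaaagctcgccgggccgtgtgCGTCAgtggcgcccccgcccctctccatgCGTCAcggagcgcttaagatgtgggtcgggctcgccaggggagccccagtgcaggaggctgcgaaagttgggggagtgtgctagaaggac
Nr4a2: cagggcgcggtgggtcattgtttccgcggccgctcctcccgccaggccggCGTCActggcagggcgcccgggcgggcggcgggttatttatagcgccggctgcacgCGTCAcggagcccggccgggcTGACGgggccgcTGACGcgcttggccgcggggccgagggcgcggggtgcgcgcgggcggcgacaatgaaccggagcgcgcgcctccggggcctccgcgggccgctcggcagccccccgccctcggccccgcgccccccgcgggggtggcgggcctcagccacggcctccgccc
Nr4a3: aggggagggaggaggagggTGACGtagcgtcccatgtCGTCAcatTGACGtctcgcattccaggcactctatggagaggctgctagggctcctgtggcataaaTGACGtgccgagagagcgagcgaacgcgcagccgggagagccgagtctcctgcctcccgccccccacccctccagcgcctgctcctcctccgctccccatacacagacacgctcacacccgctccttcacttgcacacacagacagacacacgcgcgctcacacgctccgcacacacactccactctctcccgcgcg
Prkar2b: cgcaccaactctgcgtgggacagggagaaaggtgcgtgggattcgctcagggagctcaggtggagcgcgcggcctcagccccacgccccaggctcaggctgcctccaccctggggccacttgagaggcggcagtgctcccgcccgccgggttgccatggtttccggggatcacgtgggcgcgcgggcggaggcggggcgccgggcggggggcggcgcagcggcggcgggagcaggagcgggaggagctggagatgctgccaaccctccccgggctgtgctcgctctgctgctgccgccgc
Adcyap1r1: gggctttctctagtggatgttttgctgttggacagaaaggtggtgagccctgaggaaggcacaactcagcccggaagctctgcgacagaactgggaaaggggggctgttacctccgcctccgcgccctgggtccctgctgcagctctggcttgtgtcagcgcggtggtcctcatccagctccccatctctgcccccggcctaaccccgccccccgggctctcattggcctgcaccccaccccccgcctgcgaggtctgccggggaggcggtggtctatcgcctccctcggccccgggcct
Pde4b: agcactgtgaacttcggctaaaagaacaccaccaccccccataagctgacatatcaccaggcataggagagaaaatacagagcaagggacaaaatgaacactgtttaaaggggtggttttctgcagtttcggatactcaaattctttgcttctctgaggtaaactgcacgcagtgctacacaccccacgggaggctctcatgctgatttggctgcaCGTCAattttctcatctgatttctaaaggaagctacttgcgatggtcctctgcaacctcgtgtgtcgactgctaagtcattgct

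The Nr4a1 window held the core at -233, -213, -69 and -40 from the start, each time on the opposite strand. In the Nr4a2 window it lay at -200, -144, -123 and -111, and in the Nr4a3 window at -231, -213, -205 and -147. Of the other windows, 1 of the 4 of Pde4b held the core, at -34, while those of Creb1, Pde4d, Prkar2b and Adcyap1r1 held no match. Over all 32851 windows in the table, 20.8% held the core at least once and 0.231% at least 4 times, a cutoff chosen after the NR4A windows were read. The full CRE was in 1.79% of all windows and the NR4A element in 1.51%, and neither was in any of the 12 windows. GC content was 72.3%, 81.7% and 64.7% in the Nr4a1, Nr4a2 and Nr4a3 windows, 75% and 67.3% in those of Prkar2b and Adcyap1r1, and 52.7% at the median of all windows. A match describes the letters of a window and not binding.

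**Figure D1:**
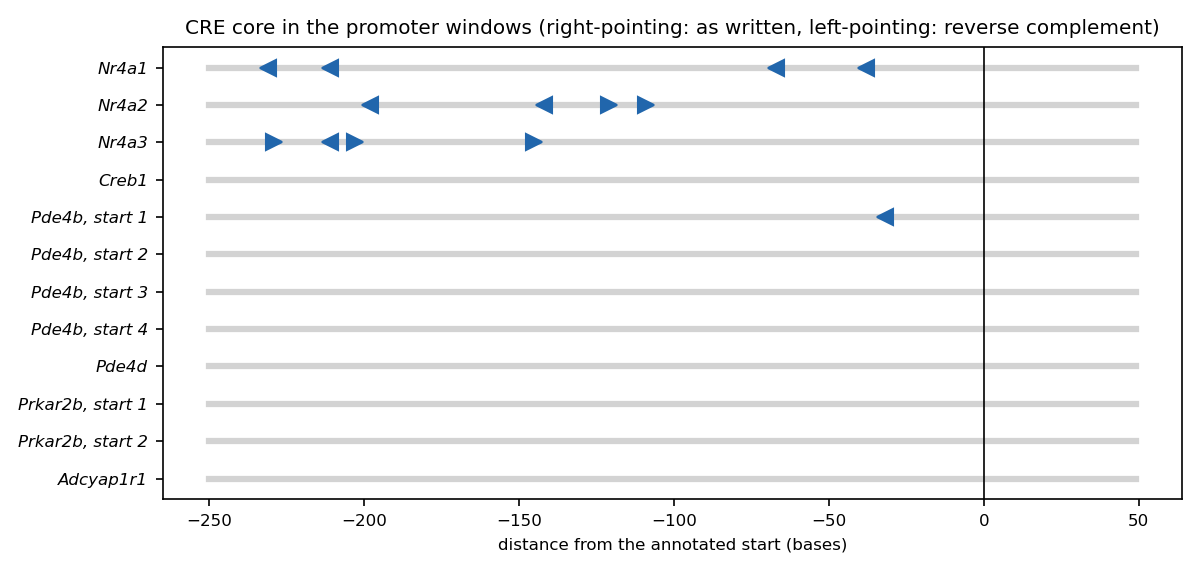
Position of the 5-base CRE core in the promoter windows of the 8 genes that had one, as distance from the annotated start in bases, with 1 grey bar for each of the 12 windows. The 3 NR4A windows carry 4 marks each, 1 window of Pde4b carries 1 mark at -34, and the other windows carry none.

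All 10 genes passed the filter on low counts in both sets. In sh-Jmjd1a against sh-Empty cells, Nr4a1, Nr4a2, Creb1 and Sik1 rose and Adcyap1r1 fell, 5 of 10 where 46.2% of the 12272 genes tested were called. With JMJD1A(WT) against LacZ, Pde4b, Prkar2b and Adcyap1r1 rose and Nr4a1 and Sik1 fell, 5 of 10 against 9.5% of 12557 genes. In JMJD1A(Mut) against JMJD1A(WT) cells, Nr4a1 and Sik1 rose and Pde4b and Prkar2b fell, 4 of 10 against 23.8%. In JMJD1A(Mut) against LacZ cells, Nr4a1 and Sik1 rose and Prkar2b fell, 3 of 10 against 9.24%. The knockdown share is close to that of all genes, and the 3 rescue shares are above theirs. The 10 genes were chosen with earlier results of these data known, so these shares are a description and not a test of enrichment. The rescue comparisons share libraries with each other, so their shares are not independent. Leaving out LacZ replicate 2 lowered the count with JMJD1A(WT) from 5 to 3, as Nr4a1 and Adcyap1r1 lost their calls.

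Groups of libraries did not overlap for 7 of the 10 genes in the knockdown comparison, where 53% of all genes tested did not overlap. The corresponding numbers were 6 against 22.9% with JMJD1A(WT) over LacZ, 5 against 37.1% with JMJD1A(Mut) over JMJD1A(WT), and 4 against 25.1% with JMJD1A(Mut) over LacZ. The median log2FC of the 10 genes was 0.15, 0.06, -0.03 and 0.05 in the 4 comparisons, and that of all genes tested was -0.00, -0.00, -0.00 and 0.00. No source states that replicates came from separate cultures, so the p-values measure the spread between these libraries, which may be technical. In bulk RNA, a change in the share of differentiating cells and a change in RNA per cell cannot be told apart.

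**Figure D2:**
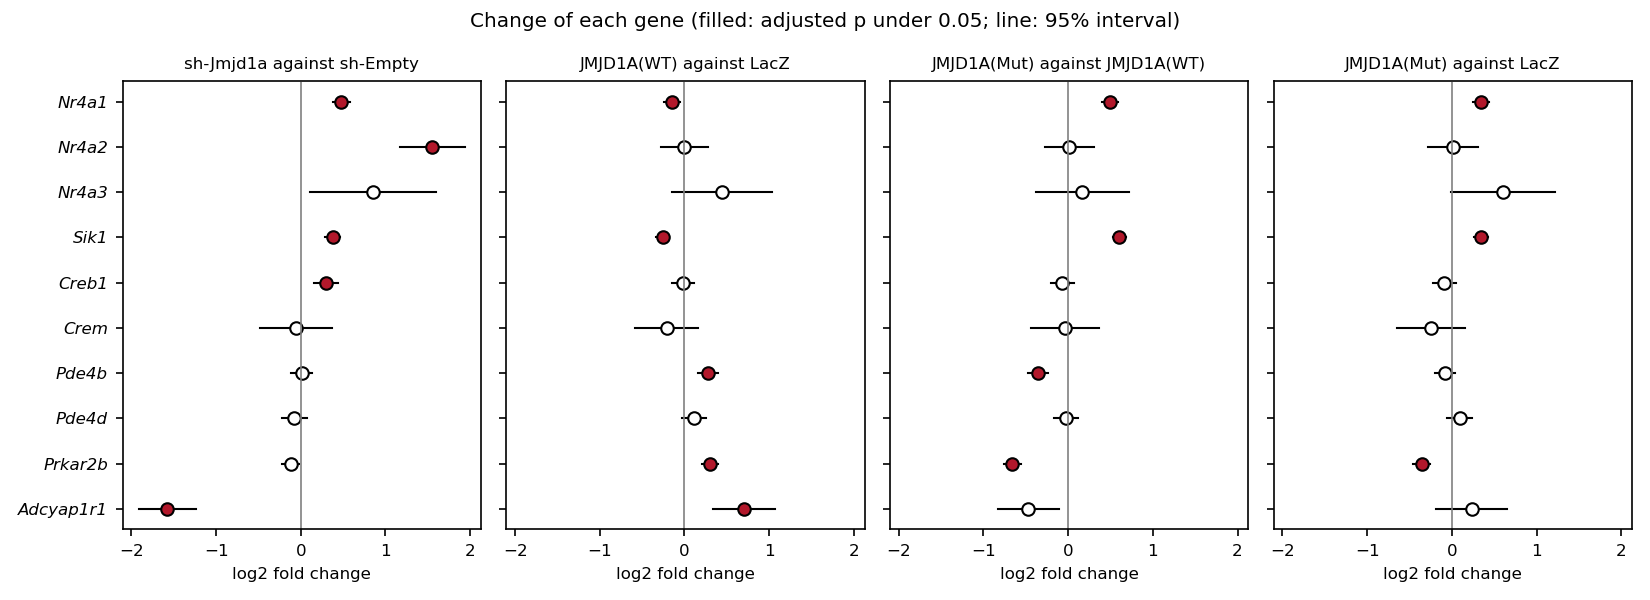
Log2 fold change of each gene in the 4 comparisons, with lines for the 95% interval and filled points for an adjusted p under 0.05. Nr4a1 and Sik1 lie to the right in the knockdown and in both mutant comparisons and to the left with JMJD1A(WT) over LacZ, whereas Nr4a2 lies near 0 in the 3 rescue comparisons.

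Among the NR4A receptors, Nr4a1 (Nur77; chr15:101097277-101105223, plus strand, mm9) made up nearly the whole of the family's RNA. Scaled to exonic length, it was at 55.6 ± 2.37 CPM per kb in sh-Empty cells (SD, n = 3), against 0.836 ± 0.151 for Nr4a2 and 0.189 ± 0.0909 for Nr4a3. Its share of the sum over the 3 receptors lay between 95.3% and 98.4% in every library. Changes of Nr4a2 and Nr4a3 are thus changes of minor members, with 33 to 272 and 6 to 54 counts per library.

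Nr4a1 was at 139, 131 and 143 CPM in sh-Empty cells and at 204, 188 and 183 CPM in sh-Jmjd1a cells. Among the rescue groups it was at 169, 173 and 178 CPM with LacZ, 167, 154 and 149 CPM with JMJD1A(WT), and 229, 208 and 225 CPM with JMJD1A(Mut). No pair of groups compared overlapped, and within the rescue set the order was JMJD1A(WT), LacZ, JMJD1A(Mut). The gap between JMJD1A(WT) and LacZ was the narrow one, 167 against 169 CPM at its closest.

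The knockdown raised Nr4a1 by a log2FC of 0.48 (SE 0.0491, edgeR adjusted p = 4.02e-09). JMJD1A(WT) lowered it against LacZ by -0.15 (SE 0.0465, adjusted p = 0.0332), a call that was lost with DESeq2 (adjusted p = 0.0667) and without LacZ replicate 2 or 3 or JMJD1A(WT) replicate 2 or 3 (adjusted p from 0.0719 to 0.26). Against JMJD1A(WT), JMJD1A(Mut) raised it by 0.50 (SE 0.0461, adjusted p = 6.99e-12), and against LacZ by 0.35 (SE 0.0461, adjusted p = 3.08e-07). Nr4a1 was thus above the LacZ level in the mutant line as well as above the wild-type level.

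Nr4a2 (Nurr1; chr2:56959241-56976414, minus strand, mm9) was at 2.91, 3.19 and 4.08 CPM in sh-Empty cells and at 8.46, 11.1 and 10.9 CPM in sh-Jmjd1a cells. It stayed at that level throughout the rescue set, with 10.7, 10.1 and 9.69 CPM with LacZ, 8.60, 11.1 and 10.6 CPM with JMJD1A(WT), and 9.08, 12.5 and 8.91 CPM with JMJD1A(Mut). Only the sh-Empty libraries stood apart. Its knockdown log2FC was 1.55 (SE 0.186, adjusted p = 6.65e-08), the largest rise among the 10 genes.

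The Nr4a2 difference between JMJD1A(WT) and LacZ was -0.00 with a 95% interval from -0.28 to 0.28 (adjusted p = 0.996), and JMJD1A(Mut) differed from JMJD1A(WT) by 0.01 (-0.27 to 0.30, adjusted p = 0.962). The interval leaves out a fall of the size of the knockdown rise. As a share of the NR4A sum per kb, Nr4a2 was at 1.47% in sh-Empty cells (1.26% to 1.71% over the libraries), 3.12% in sh-Jmjd1a cells (2.46% to 3.48%), and 2.74% to 3.77% at the means of the rescue groups.

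Nr4a3 (Nor1; chr4:48058025-48099319, plus strand, mm9) was the scarcest of the 10 genes, per kb as well, at 1.32, 0.517 and 1.55 CPM in sh-Empty cells and 2.27, 2.50 and 1.63 CPM in sh-Jmjd1a cells. The groups did not overlap, but the log2FC of 0.85 (95% interval 0.11 to 1.60) missed the threshold (adjusted p = 0.0555). It passed with all 15 libraries in one fit (0.86, adjusted p = 0.0416), without sh-Empty replicate 3 (1.21, adjusted p = 0.0367) and without sh-Jmjd1a replicate 3 (1.03, adjusted p = 0.0222). Nr4a3 ranged in this comparison from 0.55 to 1.21 with 1 library left out, and its adjusted p over all settings from 0.0222 to 0.239. It was at 1.49 to 1.73 CPM with LacZ, 2.10 to 2.28 CPM with JMJD1A(WT) and 1.88 to 3.05 CPM with JMJD1A(Mut), and none of the 3 differences passed (log2FC 0.44, 0.17 and 0.61, adjusted p from 0.238 to 0.717).

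**Figure D3:**
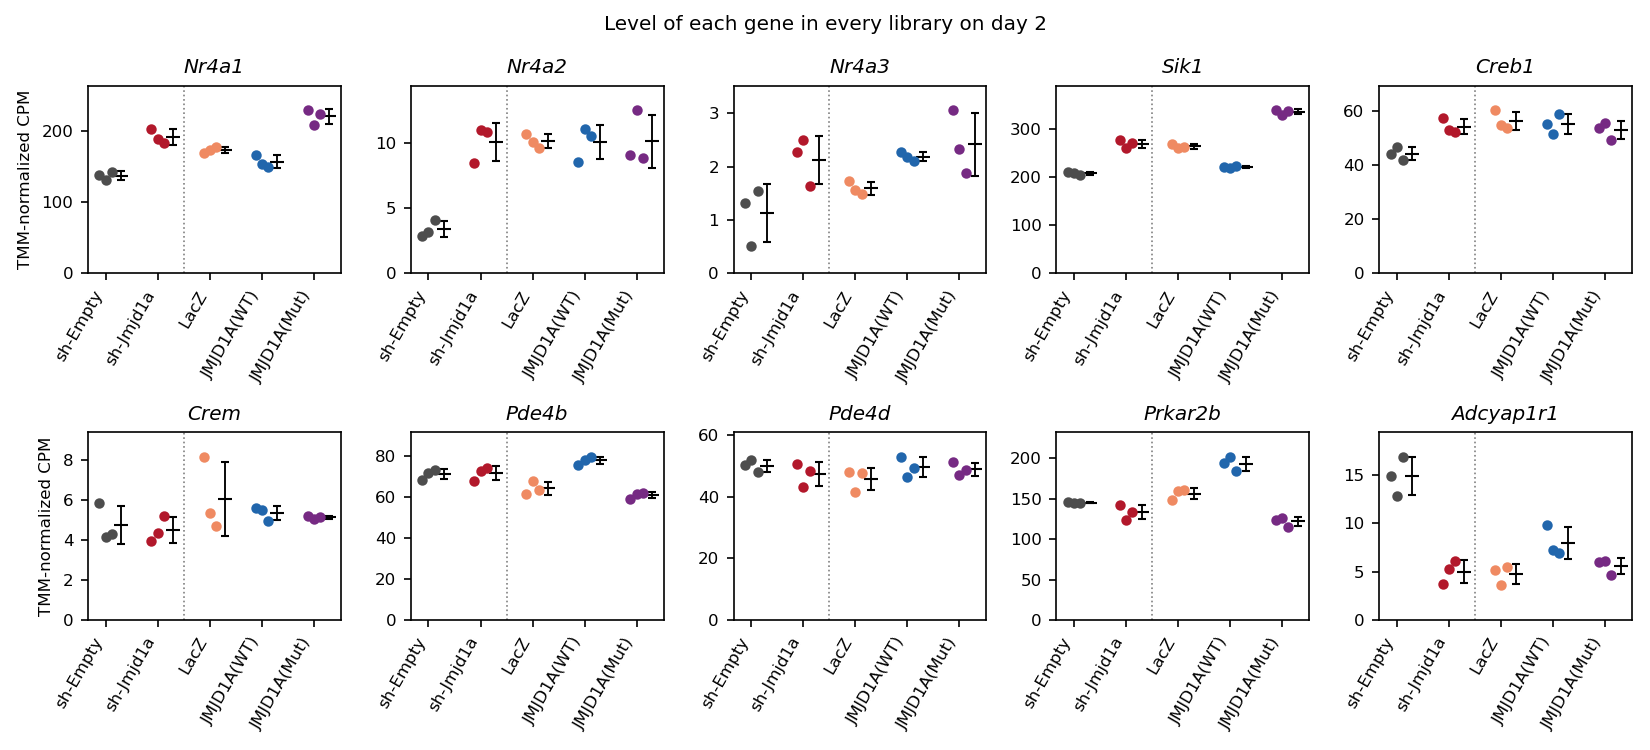
TMM-normalized CPM of each gene in every library (points), with the mean and SD of each group of 3 as a cross bar, and a dotted line between the knockdown and rescue sets, each scaled within itself. Nr4a1 and Sik1 run up, down and up again across the groups, Nr4a2 is low in the sh-Empty libraries alone, and Prkar2b peaks with JMJD1A(WT).

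Sik1 (chr17:31981193-31992737, minus strand, mm9), the salt-inducible kinase whose own gene responds to cAMP, was at 209.9, 209 and 205 CPM in sh-Empty cells and at 278, 261 and 271 CPM in sh-Jmjd1a cells. It was at 269.8, 260.5 and 262 CPM with LacZ, 220.4, 219 and 223 CPM with JMJD1A(WT), and 338, 329.7 and 338 CPM with JMJD1A(Mut). The groups were narrow, with SDs of 2.12 to 8.26 CPM, and no pair compared overlapped.

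The log2FC of Sik1 was 0.38 in the knockdown (SE 0.0419, adjusted p = 1.87e-08), -0.26 with JMJD1A(WT) against LacZ (SE 0.0388, adjusted p = 2.67e-06), 0.60 with JMJD1A(Mut) against JMJD1A(WT) (SE 0.0386, adjusted p = 5.26e-17) and 0.35 with JMJD1A(Mut) against LacZ (SE 0.0384, adjusted p = 6.64e-09). All 4 calls held under every alternative and with each library left out. In the mutant line Sik1 was above both other rescue lines, as Nr4a1 was.

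Per kb, Sik1 took 36.7% of the sum over Sik1, Sik2 and Sik3 in sh-Empty cells (36.6% to 36.9%) and 46.2% in sh-Jmjd1a cells (45.6% to 47.1%). It took 45.7% with LacZ, 41.2% with JMJD1A(WT) and 51.3% with JMJD1A(Mut). Sik3 fell in the knockdown (log2FC -0.44, adjusted p = 2.62e-09), and Sik2 was at 52.4 ± 1.99 and 49.5 ± 0.856 CPM per kb in sh-Empty and sh-Jmjd1a cells (SD, n = 3).

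Creb1 (chr1:64579378-64651121, plus strand, mm9), the founding CRE-binding activator, was at 44.2, 46.5 and 41.7 CPM in sh-Empty cells and 57.2, 52.8 and 52.1 CPM in sh-Jmjd1a cells. All 3 knockdown libraries were above all 3 control libraries, with a log2FC of 0.29 (SE 0.0696, adjusted p = 0.000894). Every rescue library lay between 49.2 and 60.1 CPM and the 3 groups overlapped. JMJD1A(WT) differed from LacZ by -0.02 (95% interval -0.15 to 0.11) and JMJD1A(Mut) from JMJD1A(WT) by -0.07 (-0.21 to 0.07).

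Crem (chr18:3266046-3337746, minus strand, mm9) encodes activator isoforms and the short repressor ICER, which the counts per gene do not separate. One of its exons overlaps Gm6225 on the other strand by 103 bases, and the strand setting of the counting is not given in the sources used here. It was at 4.14 to 5.81 CPM in sh-Empty cells, 3.93 to 5.21 CPM in sh-Jmjd1a cells and 4.67 to 8.13 CPM in the rescue set. All groups overlapped and no comparison passed, with a knockdown log2FC of -0.05 (95% interval -0.48 to 0.37, adjusted p = 0.857). Summed per kb with Creb1 and Atf1, Crem made up 2.68% to 3.46% at the group means, Creb1 20.3% to 22.5% and Atf1 74% to 76.6%.

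Both phosphodiesterase genes among the 10 encode PDE4 enzymes, which hydrolyse cAMP alone, and neither passed the test in the knockdown. Pde4b (chr4:101760148-102279864, plus strand, mm9) was at 68.3, 71.7 and 72.9 CPM in sh-Empty cells and 67.9, 72.5 and 74.2 CPM in sh-Jmjd1a cells, a log2FC of 0.01 (95% interval -0.11 to 0.13, adjusted p = 0.901). With the rescue constructs it was at 61.5, 67.8 and 63.5 CPM with LacZ, 75.7, 78 and 79.4 CPM with JMJD1A(WT), and 59.1, 61.2 and 61.9 CPM with JMJD1A(Mut). The JMJD1A(WT) libraries stood above all 6 others, which overlapped.

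JMJD1A(WT) raised Pde4b against LacZ by a log2FC of 0.28 (SE 0.0567, adjusted p = 0.00042), and JMJD1A(Mut) was lower than JMJD1A(WT) by -0.36 (SE 0.0583, adjusted p = 4.83e-06). The mutant differed from LacZ by -0.08 (95% interval -0.20 to 0.04, adjusted p = 0.49).

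Pde4d (chr13:109240142-110746171, plus strand, mm9) passed in no comparison. Its libraries lay between 41.6 and 53 CPM across all 5 groups, and every pair of groups compared overlapped. The log2FC was -0.08 in the knockdown (95% interval -0.22 to 0.07) and 0.11 with JMJD1A(WT) against LacZ (-0.03 to 0.25). Per kb, Pde4b made up 51.6% of the PDE4 sum in sh-Empty cells, Pde4d 27.8%, Pde4a 20.4% and Pde4c 0.274%, and with JMJD1A(WT) and JMJD1A(Mut) Pde4b stood at 52.7% and 46.1%.

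Prkar2b (chr12:32643341-32746161, minus strand, mm9) encodes RIIβ, the regulatory subunit of protein kinase A that is typical of fat and brain. It was at 146, 144 and 145 CPM in sh-Empty cells and at 142, 124 and 134 CPM in sh-Jmjd1a cells. It was at 149, 159.6 and 161 CPM with LacZ, 194, 202 and 184 CPM with JMJD1A(WT), and 124, 126 and 116 CPM with JMJD1A(Mut). The 3 rescue groups did not overlap, in the order JMJD1A(Mut), LacZ, JMJD1A(WT), which is the reverse of the order of Nr4a1 and Sik1.

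The knockdown log2FC of Prkar2b was -0.12 (95% interval -0.22 to -0.02), just outside the threshold (adjusted p = 0.0503). It passed under the legacy method of edgeR (adjusted p = 0.0462), without sh-Jmjd1a replicate 1 (-0.17, adjusted p = 0.015) and without sh-Jmjd1a replicate 3 (-0.11, adjusted p = 0.0472). With 1 library left out the log2FC ran from -0.17 to -0.07, and over all settings the adjusted p ran from 0.015 to 0.317. The 3 rescue differences were called, at 0.30 with JMJD1A(WT) against LacZ (SE 0.046, adjusted p = 3.13e-06), -0.66 with JMJD1A(Mut) against JMJD1A(WT) (SE 0.0478, adjusted p = 3.36e-15) and -0.36 with JMJD1A(Mut) against LacZ (SE 0.049, adjusted p = 7.44e-07). All 3 held under every alternative and with each library left out.

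Among regulatory subunits, Prkar2b made up 26.8% of the sum per kb in sh-Empty cells (26.6% to 27.1%) and 27.2% in sh-Jmjd1a cells (25.5% to 28.5%). It made up 34.8% with JMJD1A(WT) (33.5% to 35.9%), 30% with LacZ and 25.7% with JMJD1A(Mut). The major subunit was Prkar1a, at 81.7 to 89.8 CPM per kb at the group means, and Prkar1b was below 0.2 CPM per kb in every group.

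Adcyap1r1 (chr6:55401972-55451445, plus strand, mm9) encodes PAC1, the receptor for the neuropeptide PACAP, which couples to adenylyl cyclase. It was at 14.9, 12.8 and 16.8 CPM in sh-Empty cells and at 3.66, 5.24 and 6.06 CPM in sh-Jmjd1a cells. Within the rescue set it was at 5.20, 3.61 and 5.45 CPM with LacZ, 9.85, 7.19 and 6.88 CPM with JMJD1A(WT), and 6.03, 6.05 and 4.63 CPM with JMJD1A(Mut). The sh-Empty libraries stood above all others, and the JMJD1A(WT) libraries above the other 6 of the rescue set.

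Adcyap1r1 fell by -1.57 in the knockdown (SE 0.164, adjusted p = 5.46e-09), the largest fall among the 10 genes. It rose by 0.70 with JMJD1A(WT) against LacZ (SE 0.181, adjusted p = 0.00656), a call that was lost without LacZ replicate 2 (0.54, adjusted p = 0.0789) or JMJD1A(WT) replicate 1 (0.55, adjusted p = 0.0756). JMJD1A(Mut) was at -0.47 against JMJD1A(WT) (95% interval -0.83 to -0.11), which missed the threshold (adjusted p = 0.0524), and 5 of the 8 other settings brought it under (adjusted p from 0.0314 to 0.0471). With 1 library left out this difference ran from -0.61 to -0.32, and over all settings its adjusted p ran from 0.029 to 0.267. The mutant and LacZ overlapped (0.24, 95% interval -0.18 to 0.66, adjusted p = 0.573).

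Whether the wild-type protein moved each gene back by as much as the knockdown had moved it was tested in one fit of all 15 libraries, as the sum of the knockdown log2FC and the log2FC of JMJD1A(WT) over LacZ. A sum of 0 is equal and opposite change. This contrast was chosen after the changes had been seen, and 32.7% of 12758 genes differed from 0. It adds changes already given, and where either was near 0, as for Nr4a2, Creb1 and Pde4b, the sum restates the other. Kdm3a itself changed by -0.42 in the knockdown and by 3.83 with JMJD1A(WT) over LacZ, which the sum does not allow for. The sum was 0.13 for Sik1 (95% interval 0.02 to 0.24, adjusted p = 0.067) and 0.34 for Nr4a1 (0.20 to 0.48, adjusted p = 9.51e-05). It was 1.56 for Nr4a2 (1.08 to 2.04, adjusted p = 8.37e-07), 1.31 for Nr4a3 (0.38 to 2.23, adjusted p = 0.0237) and 0.29 for Creb1 (0.09 to 0.48, adjusted p = 0.0181), so these sums keep the sign of the knockdown change. For Adcyap1r1 it was -0.86 (-1.39 to -0.33, adjusted p = 0.00869), again with the sign of the knockdown. For Pde4b and Prkar2b it was 0.30 (0.14 to 0.46, adjusted p = 0.00303) and 0.19 (0.05 to 0.33, adjusted p = 0.0261), with the sign of the change by JMJD1A(WT). For Crem and Pde4d the sum did not pass (-0.26 and 0.05, adjusted p = 0.539 and 0.76).

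The wider cAMP pathway was followed through a list of 106 genes by role, the 10 included. This list was likewise chosen with earlier results of these data known, so its shares are descriptive. In the knockdown, 27 of its 70 tested genes rose and 16 fell. Without the 10 genes these numbers were 23 and 15 of 60, and the background was 22.3% higher and 23.9% lower. The median log2FC of the 60 genes was 0.12. With JMJD1A(WT) against LacZ, 6 rose and 5 fell of 63 (background 4.98% and 4.52%). In JMJD1A(Mut) against JMJD1A(WT) cells, 11 rose and 13 fell of 63 (background 12.1% and 11.7%), and in JMJD1A(Mut) against LacZ cells, 6 rose and 6 fell of 63 (background 4.78% and 4.46%). The medians of the 63 genes were 0.02, 0.03 and 0.02.

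Of receptors that couple to cAMP synthesis, 7 of 20 passed the filter in the knockdown set, and 4 fell and 2 rose. Of all genes tested, 23.9% fell and 22.3% rose. Those that fell were Adcyap1r1, the prostacyclin receptor Ptgir (-1.46, adjusted p = 0.000288) and the melanocortin receptors Mc2r (-1.38, adjusted p = 0.000129) and Mc5r (-1.11, adjusted p = 0.000197). The prostaglandin E2 receptor Ptger4 rose by 2.24 (SE 0.484, adjusted p = 0.000351) from 0.435 ± 0.153 to 2.16 ± 1.08 CPM (SD, n = 3), on 3 to 36 counts per library, and its exons overlap genes on the other strand. The other receptor that rose, Calcrl, was the most abundant of the list. It rose by 0.23 (SE 0.0665, adjusted p = 0.00572), from 47.05 to 50.56 CPM over the sh-Empty libraries to 54.04 to 60.07 CPM over the sh-Jmjd1a libraries. The summed level of the 20 receptors was 77.79 to 85.13 CPM in sh-Empty and 70.74 to 74.05 CPM in sh-Jmjd1a cells. Mc2r, the ACTH receptor, was at 4.31 ± 1.00 CPM in sh-Empty and 1.70 ± 0.404 CPM in sh-Jmjd1a cells. It rose by 1.27 with JMJD1A(WT) against LacZ (adjusted p = 0.000609) and fell by 1.87 with JMJD1A(Mut) against JMJD1A(WT) (adjusted p = 5.42e-06).

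Of the phosphodiesterases, 6 of the 9 tested rose in the knockdown and 1 fell, with Pde4b and Pde4d not called. Of all genes tested, 22.3% rose and 23.9% fell. Among those that rose were Pde3b (1.16, adjusted p = 2.64e-07), the enzyme through which insulin restrains lipolysis, and Pde2a (1.13, adjusted p = 9.72e-05), a cGMP-stimulated enzyme. With JMJD1A(WT) against LacZ, Pde2a rose by 0.99 (adjusted p = 5.76e-07), Pde3b by 0.47 (adjusted p = 0.0136) and Pde4b as given. The same 3 fell with JMJD1A(Mut) against JMJD1A(WT), Pde2a by 1.69 (adjusted p = 1.55e-11). Pde2a and Pde3b were thus higher both with the knockdown against its control and with JMJD1A(WT) against LacZ. With JMJD1A(Mut) against LacZ, Pde2a was lower by -0.70 (adjusted p = 0.0145), a call lost without LacZ replicate 1 (adjusted p = 0.0578) or JMJD1A(Mut) replicate 2 (adjusted p = 0.146).

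Of protein kinase A subunits, inhibitors and anchors, 4 of 17 rose and 5 fell in the knockdown, shares near the 22.3% and 23.9% of all genes tested. The kinase inhibitor Pkia rose by 1.69 (adjusted p = 3.05e-05), from 1.59, 1.81 and 4.08 CPM to 7.68, 7.02 and 10.9 CPM. The catalytic subunit Prkacb fell by 0.36 (adjusted p = 3.08e-06), and the regulatory subunits Prkar2a and Prkar1a by 0.23 and 0.14 (adjusted p = 0.00236 and 0.00495). The mitochondrial anchor Akap1 fell by 0.27 in the knockdown (adjusted p = 0.000584), rose by 0.22 with JMJD1A(WT) against LacZ (adjusted p = 0.0135) and fell by 0.29 with JMJD1A(Mut) against JMJD1A(WT) (adjusted p = 0.000299). The middle call was lost without LacZ replicate 2 or JMJD1A(WT) replicate 2 or 3 (adjusted p from 0.0508 to 0.0786). The anchor Akap12 fell by 0.49 with JMJD1A(WT) against LacZ (adjusted p = 4.55e-06). With JMJD1A(Mut) against LacZ it was lower by -0.24 (adjusted p = 0.0363), a call lost with DESeq2 (adjusted p = 0.0698) and without LacZ replicate 2 or 3 or any JMJD1A(Mut) replicate (adjusted p from 0.0523 to 0.163).

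CREB targets other than the NR4A genes moved in both directions. In the knockdown, 10 of the 16 tested rose and 4 fell, Nr4a1 and Nr4a2 included, where 22.3% and 23.9% of all genes tested did. The largest rise was that of the antiproliferative gene Btg2, by 1.77 (SE 0.163, adjusted p = 2.03e-08). Ramp3, an accessory protein of the calcitonin receptor family whose exons overlap Gm11978 on the other strand, fell by 1.66 (SE 0.205, adjusted p = 1.14e-07). Bdnf, a neurotrophin gene with a CRE-driven promoter, rose by 0.59 in the knockdown (adjusted p = 1.35e-07), fell by 0.45 with JMJD1A(WT) against LacZ (adjusted p = 2.83e-05) and rose by 0.59 with JMJD1A(Mut) against JMJD1A(WT) (adjusted p = 5.27e-08), the same directions as Nr4a1 and Sik1. Ramp3 took the opposite directions, with 1.13 (adjusted p = 0.000786) and -1.52 (adjusted p = 1.87e-05) in the rescue set. Ppargc1a, the coactivator PGC-1α, fell by 0.44 with JMJD1A(WT) against LacZ (adjusted p = 0.00864), a call lost without LacZ replicate 1 or JMJD1A(WT) replicate 3 (adjusted p = 0.101 and 0.099). In the mutant against LacZ, 7 of 16 rose and 1 fell, where 4.78% and 4.46% of all genes tested did. Dusp1, a MAP kinase phosphatase, was at 0.42 (adjusted p = 8.48e-08) and Btg2 at 0.44 (adjusted p = 0.00405, and 0.0846 without JMJD1A(Mut) replicate 1). The comparisons of LacZ and of JMJD1A(Mut) with JMJD1A(WT) share its 3 libraries.

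**Figure D4:**
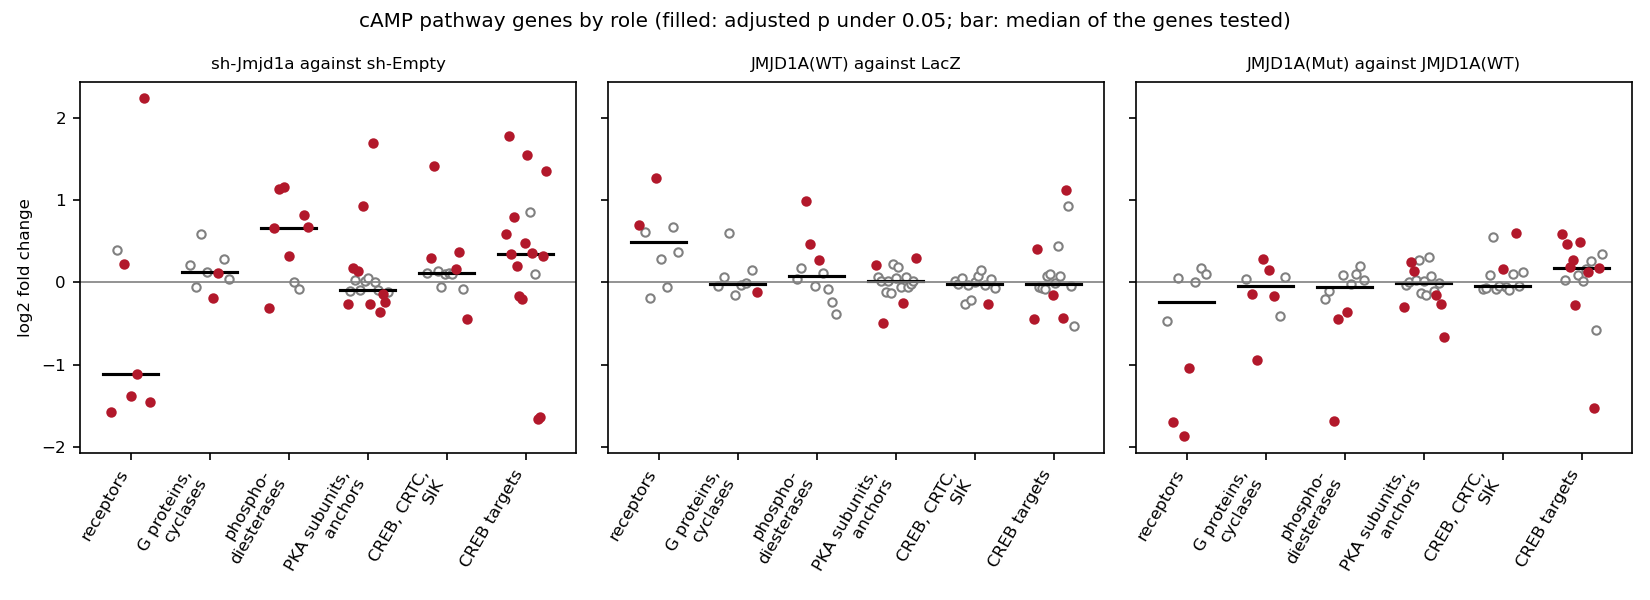
Log2 fold change of the tested cAMP pathway genes by role in 3 comparisons, 1 point a gene, filled where the adjusted p was under 0.05, with a bar at the median of each role. In the knockdown the CREB targets and phosphodiesterases have medians of 0.35 and 0.66 and the receptors one of -1.11.

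Immediate early genes, which respond within minutes to handling and to growth factors as well as to cAMP, moved with Nr4a1 in part. Of the 11 tested, 8 rose in the knockdown and 3 did not pass, where 22.3% of all genes tested rose. With JMJD1A(WT) against LacZ 3 rose and 2 fell (all genes 4.98% and 4.52%), with JMJD1A(Mut) against JMJD1A(WT) 6 rose and 1 fell (12.1% and 11.7%), and with JMJD1A(Mut) against LacZ 6 rose and 5 did not pass (4.78% of all genes rose). The summed level of the 12 genes of the list ran from 411 to 443 CPM in sh-Empty, 589 to 725 CPM in sh-Jmjd1a, 546 to 556 CPM with LacZ, 573 to 615 CPM with JMJD1A(WT) and 693 to 771 CPM with JMJD1A(Mut).

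Fos rose by 1.77 in the knockdown (adjusted p = 2.17e-07), from 2.28 ± 0.50 to 7.91 ± 1.79 CPM (SD, n = 3), and by 0.69 with JMJD1A(Mut) against JMJD1A(WT) (adjusted p = 0.00021). With JMJD1A(WT) against LacZ it was at 0.49 (95% interval 0.15 to 0.83, adjusted p = 0.0573). Egr1 rose by 1.23, 0.68 and 0.41 in these 3 comparisons (adjusted p = 1.03e-07, 9.35e-14 and 4.55e-09). Junb was at 0.71, 0.16 and 0.23 (adjusted p = 4.51e-05, 0.0533 and 0.000947). Jun rose by 0.29, fell by 0.19 and rose by 0.37 (adjusted p = 2.22e-05, 0.00233 and 4.42e-09), and Klf4 rose by 0.81, fell by 0.29 and rose by 0.29 (adjusted p = 8.92e-10, 0.00294 and 0.00167). The directions of Jun and Klf4 were thus those of Nr4a1, and with JMJD1A(WT) against LacZ Egr1 moved the other way. The part of an immediate early response in the changes of Nr4a1 and Sik1 was not tested.

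All 12 adipocyte markers fell in the knockdown, rose with JMJD1A(WT) against LacZ and fell with JMJD1A(Mut) against JMJD1A(WT), and 11 of 12 fell with JMJD1A(Mut) against LacZ. Of all genes tested, 23.9%, 4.98%, 11.7% and 4.46% moved in these directions. The summed level of the adipocyte markers was 5674 to 5780 CPM in sh-Empty cells, 2812 to 2969 CPM in sh-Jmjd1a cells, 3547 to 3629 CPM with LacZ, 4097 to 4479 CPM with JMJD1A(WT) and 2728 to 2842 CPM with JMJD1A(Mut). The largest part of this sum was Lpl, with means of 3945 CPM in sh-Empty, 2355 in sh-Jmjd1a, 2908 with LacZ, 3122 with JMJD1A(WT) and 2411 with JMJD1A(Mut). Its knockdown log2FC was -0.74, where the median of the 12 markers was -1.74, so the sum understates the fall of most of them. The order of the sum in the rescue set is that of Prkar2b and the reverse of that of Nr4a1 and Sik1. Preadipocyte and fibroblast markers were higher for 7 and lower for 3 of the 11 tested in the knockdown (all genes 22.3% and 23.9%). Those lower were Dlk1, Lum and Ly6a (log2FC -0.76, -0.79 and -0.41). The list summed to 21344 to 21703 CPM in sh-Empty, 32633 to 33610 CPM in sh-Jmjd1a and 37503 to 39872 CPM in the rescue set. Its largest parts were Fn1, Col3a1 and Col1a2, with means of 8744, 4794 and 3033 CPM in sh-Empty cells. Mean Dlk1 was 853 CPM in sh-Empty, 505 in sh-Jmjd1a, 557 with LacZ, 752 with JMJD1A(WT) and 386 with JMJD1A(Mut). The rescue fit tested all 12 of this list. With JMJD1A(WT) against LacZ, 4 rose and 1 fell (all genes 4.98% and 4.52%). With JMJD1A(Mut) against JMJD1A(WT), 4 rose and 4 fell (12.1% and 11.7%), and with JMJD1A(Mut) against LacZ, 4 rose and 1 fell (4.78% and 4.46%). The part of the degree of differentiation in the changes of the 10 genes was not tested.

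**Figure D5:**
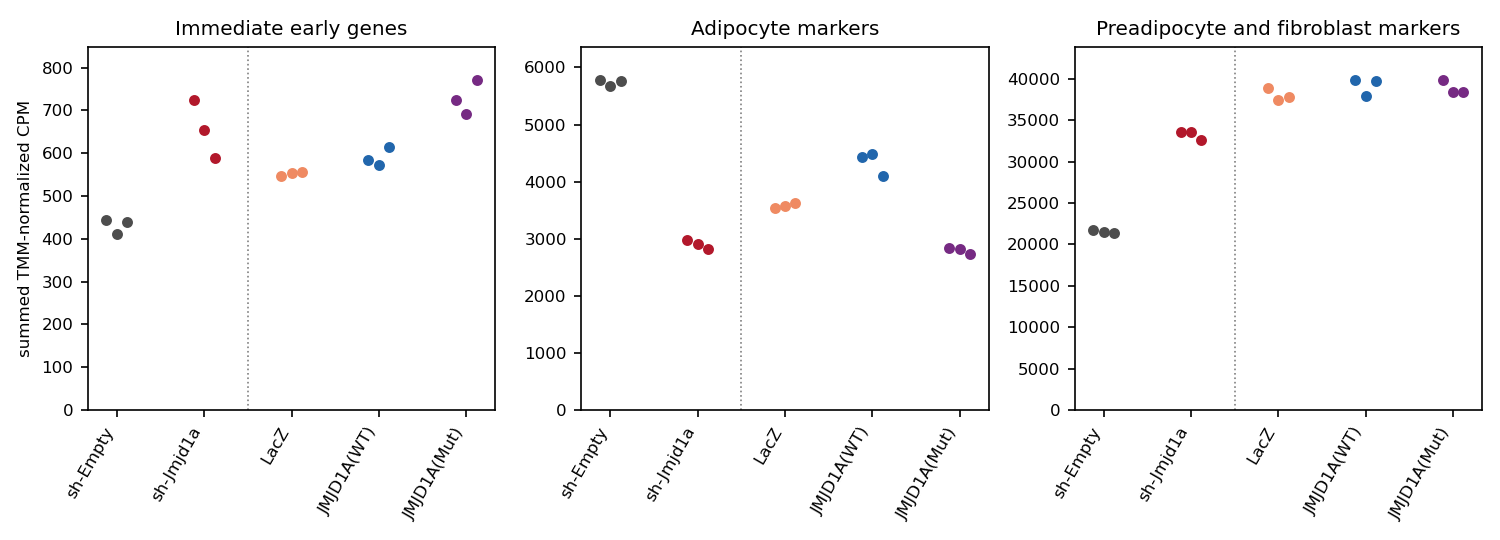
Summed TMM-normalized CPM of 12 immediate early genes, 12 adipocyte markers and 12 preadipocyte and fibroblast markers in each library, with a dotted line between the knockdown and rescue sets. The adipocyte sum, of which Lpl is the largest part, is highest in sh-Empty cells (5674 to 5780 CPM). Within the rescue set it is lowest with JMJD1A(Mut). The preadipocyte and fibroblast sum, of which Fn1, Col3a1 and Col1a2 are the largest parts, is lowest in sh-Empty cells.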

How the data were processed

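Reads were trimmed by the authors with fastp and aligned with HISAT2 to mm9, and the deposited values are raw counts per gene from featureCounts, listed by Entrez Gene number without normalization. A library kit that keeps strand is named in the study's methods but not in the labels, and the strand setting of the counting is not given in the sources used here, so reads of genes that overlap on opposite strands could be shared. Symbols (24191 of 26301 gene numbers) came from a RefSeq table of GRCm38.p6, which also gave the promoter windows. Positions and exonic lengths were read from GENCODE M1 on NCBIM37, which is mm9. Gene numbers with no symbol held 0.5% of the counts.

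The 6 knockdown and the 9 rescue libraries were fitted separately with edgeR 4.0.16 in R 4.3.3 (limma 3.58.1, statmod 1.5.0), with TMM, filterByExpr at a minimum count of 10, a robust quasi-likelihood F test and Benjamini-Hochberg adjustment over all genes tested, called at 0.05. SEs and 95% intervals come from this fit, and counts per library set the precision, lowest for Nr4a3. The procedure was also run on simulated counts, whose outcome is not reported here. The 10 genes, the pathway and marker lists and the tests were chosen with earlier results of these data known. Genes named are the 10, Kdm3a, in each comparison the 3 pathway genes with the largest called change in each direction at a mean of at least 1 CPM, pathway and immediate early genes called in the same sense in 3 comparisons, Fos, Egr1 and Junb. Family members of the 10, Mc5r, Calcrl, Prkacb, Prkar1a, Prkar2a and Pde3b were added after their values were seen. So were Lpl, Dlk1, Lum, Ly6a, Fn1, Col3a1 and Col1a2 of the marker lists. A result that this rule would name is not reported here. One list gene had no match among the symbols. Replicates differed by more than sampling noise in every group. The alternatives were each library removed in turn, the replicate number as a block, DESeq2 1.42.0, RLE size factors, a filter of 10 counts in all libraries or none, the legacy quasi-likelihood method, and fits of all 15 libraries or of the compared groups alone.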

Additional observations from a re-analysis of the deposited data

How the results depend on the processing

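Calls of Sik1, Prkar2b and Pde4b in the rescue set, and of Nr4a1 in the knockdown and mutant comparisons, held under all alternatives and with each library left out. The count of the 10 genes called ranged from 5 to 7 in the knockdown, 3 to 5 with JMJD1A(WT) against LacZ, 4 to 5 with JMJD1A(Mut) against JMJD1A(WT) and stayed at 3 with JMJD1A(Mut) against LacZ, when 1 library was left out. The pathway counts of 43, 16, 28 and 15 likewise ranged over 40 to 45, 11 to 18, 21 to 31 and 11 to 15. RLE size factors moved the median of all genes by at most 0.00719 on the log2 scale. Deviations of same-numbered libraries were weakly correlated at most (-0.0442 to 0.0321 in the knockdown set, -0.015 to 0.0541 in the rescue set, none over 0.1). Different-numbered pairs ran from -0.0403 to 0.0645 and from -0.0566 to 0.0227. Rescue pairs of replicates 1 and of replicates 2 lay at 0.0222 to 0.0541. The labels do not say that a number marks a shared day, so numbers were not taken to pair samples and the block was an alternative. With the replicate block, 5 genes were called in JMJD1A(Mut) against JMJD1A(WT) instead of 4, by Adcyap1r1 (-0.49, adjusted p = 0.0314), Fos and Junb passed with JMJD1A(WT) against LacZ (0.50 and 0.16), and Nr4a2 changed sign around 0 with JMJD1A(WT) against LacZ (0.0064) and in JMJD1A(Mut) against JMJD1A(WT) (-0.0035). With 1 library left out, differences near 0 that did not pass also changed sign. These were Crem (-0.17 to 0.10) and Pde4b (-0.011 to 0.046) in the knockdown, Nr4a2 (-0.056 to 0.076), Creb1 (-0.080 to 0.032) and Crem (-0.37 to 0.069) with JMJD1A(WT) against LacZ, Nr4a3 (-0.027 to 0.31), Nr4a2 (-0.18 to 0.096) and Pde4d (-0.056 to 0.024) in JMJD1A(Mut) against JMJD1A(WT), and Nr4a2 (-0.18 to 0.093) and Crem (-0.40 to 0.034) in JMJD1A(Mut) against LacZ. The cause was not tested. Depth limits the scarce genes, such as Nr4a3 with 6 to 54 counts per library, whose intervals span wide ranges.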
